A study of Mus musculus with 12 samples.

Results

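The genes described here are 38 nerve and glia genes, read in RNA of the humerus, the long bone of the upper forelimb. They are transcripts of neurons and their axons, and of Schwann cells, the glia that ensheathe peripheral axons. Their members were all probe sets, other than array controls, whose platform annotation gives exactly 1 gene symbol that is on the list. This gave 89 of 36701 probe sets, with 50 on array type A, 23 on B and 16 on C. All 38 genes were represented, of 15964 genes named on the arrays.

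The humeri came from mouse embryos at stage E14.5 that were either Runx2 -/- (Runx2-null here) or wild type. Runx2 encodes a transcription factor that osteoblasts need, and the comparison asks which transcripts of the bone differ without it. Each genotype had 2 RNA pools, numbered 1 and 2, of about 60 Runx2-null or about 75 wild-type humeri each, and every pool was hybridised to 3 short-oligonucleotide array types, which gave 12 arrays. The labels give no strain, sex or further allele for either genotype. Since each value is from a pool, the spread between animals is not seen, and p-values cover no variation beyond the 2 pools per genotype. Runx2 itself is not analysed here, and the genotype labels were therefore not checked against its level.

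As background, the cell bodies of limb sensory neurons lie in the dorsal root ganglia and those of motor neurons in the spinal cord, so a dissected limb bone can hold axons and Schwann cells but few neuronal cell bodies. Schwann cells arise from the neural crest under Sox10 and depend on neuregulin signals from axons through ErbB receptors. Axonal growth uses microtubule proteins, stathmins and growth cone proteins, and later functions use neurofilaments and synaptic vesicle proteins. Several of these genes are also active outside nerve: S100b in chondrocytes, Ncam1 in embryonic muscle and mesenchyme, Pmp22 in fibroblasts, and Dcx in embryonic joint and articular cartilage of the mouse. In whole-bone RNA, fewer cells of a type and less RNA per cell cannot be told apart.

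Values are MAS5 signals, array intensities on a linear scale. Differences are Runx2-null minus wild type on the log2(signal + pseudocount) scale, with a pseudocount of 7 on A, 13 on B and 10 on C, so a difference between dim probe sets is understated. Tests took in those probe sets that exceeded their array's 40th percentile of signal in 2 or more of the 4 pools. The replicate numbers equal 2 scan batches, and both genotypes lie in each. limma was therefore fitted without a block, as the main test, and with the replicate number as a block. Rose and fell denote calls on arrays A and B at an adjusted p under 0.05 with the block, and each is given with its p from the fit without it. No member passed without the block, where 4 of 15601 probe sets on A and B passed (0.0256%). With the block 343 passed (2.2%): in Runx2-null, 141 were higher (0.904%) and 202 were lower (1.29%). The members, and the further lists used below, were chosen with earlier results of these data known, so shares among them are descriptions.

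Array type C went against its labels. Over 28 control probe sets present on all 3 types, the departure of each array from its type's mean was set against the replicate 1 pattern of array A. The correlations were 0.973 and 0.896 for the Runx2-null replicate 1 arrays of A and B, and -0.975 and -0.882 for those of replicate 2. On array C they were -0.892 and -0.944 for the arrays labelled Runx2-null, against 0.948 and 0.982 for those labelled wild type. On C, genotype as labelled and the batch pattern of the controls therefore cannot be told apart. Every signal, difference and interval of a member below comes from A and B unless C is named. Adjusted p-values are an exception, since the adjustment took in the tested probe sets of all 3 types. Adjusted over A and B alone, those without the block were higher for every tested member gene. The pattern is the one that an exchange of the columns of wild-type replicate 2 and Runx2-null replicate 1 would leave. Whether they were exchanged was not tested, and C values are printed as labelled.

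The humerus pools also differed between replicates in the signals of muscle markers. Tissue content, RNA per cell and scan batch cannot be told apart here. Summed signals of 17 skeletal muscle marker genes were 6314.7 and 1198 in Runx2-null replicates 1 and 2, against 5284.6 and 1511.1 in wild type. These sums were thus higher in replicate 1 in both genotypes, and 0 of the 16 tested muscle genes passed between genotypes. Of 11 tested chondrocyte markers, which mark the labelled tissue, 0 rose and 1 fell. That is 9.09% lower, beside 1.29% of all probe sets and 2.25% of those on A. The gene that fell was Hapln1, on A (log2 difference -0.71, adjusted p = 0.00177 with the block and 0.492 without). Summed chondrocyte signals were 20413.8 and 21260.1 in Runx2-null, against 17819.9 and 21304.6 in wild type.

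Of the 38 genes, each read from its probe set with the highest signal percentile on A or B, 22 were tested and 16 were below the filter. Dcx rose, 0 genes fell and 21 did not pass. That is 1 of 22 genes, or 4.55%, and by probe set 1 of 27 (3.7%), set beside 2.2% of all probe sets. On array A, which holds the Dcx probe set, 1.61% of all tested probe sets were called higher and 2.25% lower. On array B these shares were 0.204% and 0.356%. The median log2 difference of the 22 genes was 0.04, against 0.01 over all tested probe sets on A and B. It was 0.12 within replicate 1 and 0.06 within replicate 2. The difference had the same sign in both replicates for 12 of the 22 genes (8 higher, 4 lower). That is 54.5%, beside 60.1% of all probe sets (32.1% higher, 28% lower). The genotypes did not overlap for 8 of 22 genes, 5 higher and 3 lower (Egr2, Stmn2 and Dpysl3). That is 36.4% beside 25.3% of all probe sets (13.6% higher, 11.7% lower).

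**Figure D1:**
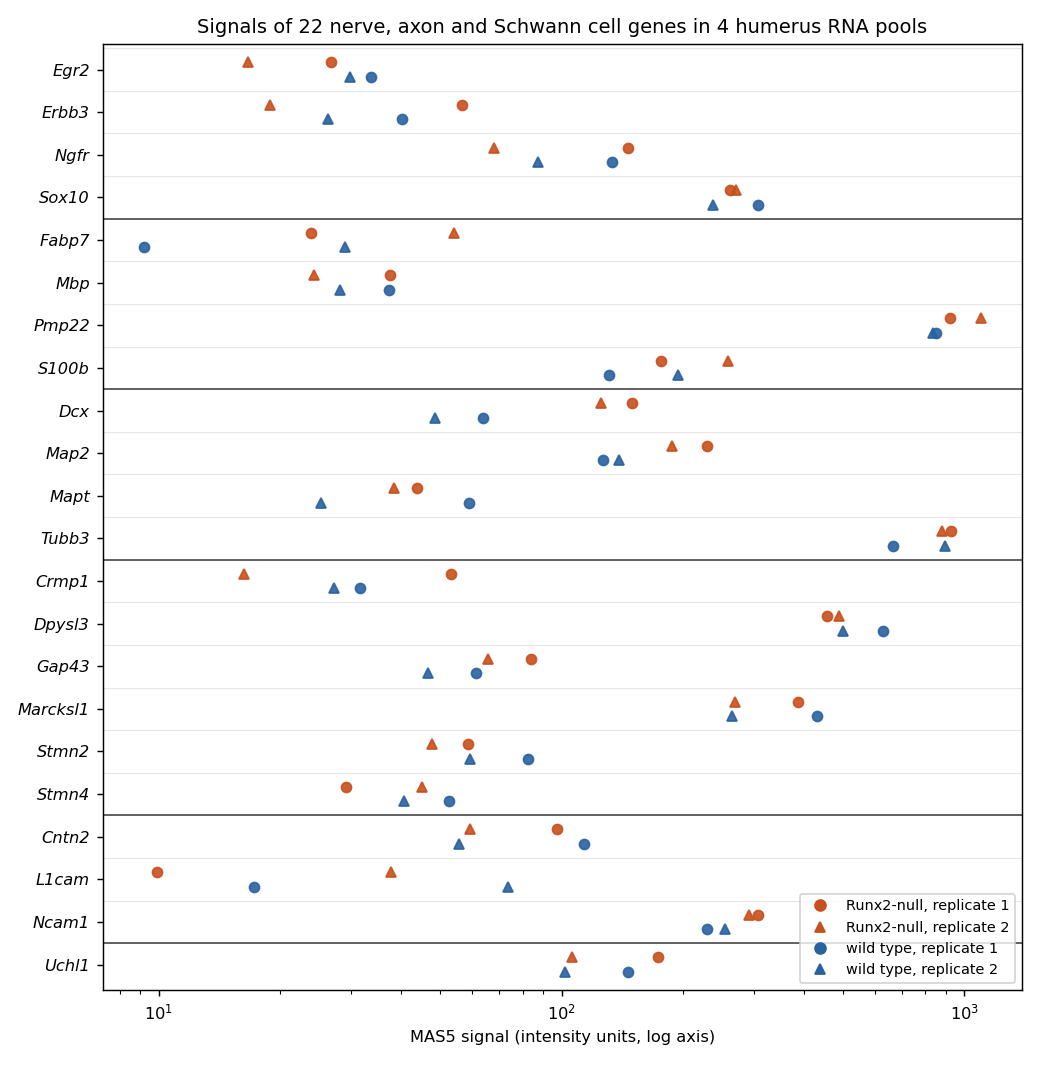
MAS5 signal (intensity units, log axis) of the 22 tested genes in each RNA pool, with Runx2-null pools in orange above wild-type pools in blue, circles for replicate 1 and triangles for replicate 2; dark lines separate the roles. The 2 Runx2-null points of Dcx, at 149.7 and 125.6, lie right of its wild-type points at 63.8 and 48.5, while for most other genes the genotypes overlap. Signals of different genes come from different probes and are not comparable with each other.

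Dcx encodes doublecortin, a microtubule-binding protein of migrating and newly formed neurons. Its 1 probe set, on array A, had signals of 149.7 and 125.6 in Runx2-null replicates 1 and 2, against 63.8 and 48.5 in the wild-type replicates. Both Runx2-null pools exceeded both wild-type pools. The means were 137.65 ± 17.04 in Runx2-null and 56.15 ± 10.8 in wild type (SD, n = 2 each). Dcx rose by 1.20 on the log2 scale, or 2.30-fold on that scale's linear form, with an SE of 0.16 and a 95% interval from 0.86 to 1.54 (adjusted p = 0.00135 with the block). Without the block the SE was 0.26 and the adjusted p 0.246. Within replicate 1 the log2 difference was 1.15 and within replicate 2 it was 1.26. The call was lost with the block when limma's variance trend was left out (adjusted p = 0.206), while the other block settings gave 0.000741 to 0.0272.

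Markers of other cells moved beside Dcx as follows. Of 8 tested genes of tendon and fibrous connective tissue, Dcn, Kera and Ogn rose and Tnc fell. These are 37.5% higher and 12.5% lower, beside 0.904% and 1.29% of all probe sets. In the order named, the adjusted p-values were 0.000793, 0.0374, 0.004 and 0.044 with the block. Without it they were 0.334, 0.551, 0.631 and 0.741. On array A, where all 8 were read, the shares of all probe sets were 1.61% and 2.25%. Their summed signals were 7654.1 and 6356.1 in Runx2-null, against 6508 and 5119 in wild type, so the sums were higher in Runx2-null within each replicate. By gene, 5 of the 8 were higher within both replicates, while 2, Scx and Tnc, were lower within both. Tnmd, the other listed gene, was read on array C alone, where its log2 difference as labelled was -1.68. The part of tendon and fibrous tissue cells in the Dcx result was not tested. Macrophage and leukocyte markers (7 tested), erythroid markers (6) and melanocyte markers (2) gave 0 calls with the block. Of the macrophage markers, 71.4% were lower in Runx2-null within both replicates, beside 28% of all probe sets, and C1qa and C1qb were the 2 higher ones (median log2 difference of the 7, -0.34).

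The sequence before the start of Dcx is shown because it is the 1 member that passed in a comparison of embryos with and without a DNA-binding protein. RUNX proteins are known to bind the letters TGTGGT and TGCGGT, and these were searched on both strands of the 250 bases before each start listed by RefSeq (GRCm38.p6), beside the TATA box letters TATAAA. Pmp22 and Uchl1 are shown with it as examples from the 4 member genes that hold a RUNX match. Egr2 and Prph also hold one and are not shown. Capitals mark TATAAA in Dcx, ACCACA (the reverse complement of TGTGGT) in Pmp22 and TGCGGT in Uchl1. The stretches are chrX:143933220-143933469 on the minus strand, chr11:63128732-63128981 on the plus strand and chr5:66675871-66676120 on the plus strand, each 5′ to 3′ along its gene.
Dcx: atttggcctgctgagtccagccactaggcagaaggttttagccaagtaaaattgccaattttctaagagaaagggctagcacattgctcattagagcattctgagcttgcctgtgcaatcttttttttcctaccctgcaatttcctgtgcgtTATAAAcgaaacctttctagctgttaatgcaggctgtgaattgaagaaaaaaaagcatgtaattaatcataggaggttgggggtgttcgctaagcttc
Pmp22: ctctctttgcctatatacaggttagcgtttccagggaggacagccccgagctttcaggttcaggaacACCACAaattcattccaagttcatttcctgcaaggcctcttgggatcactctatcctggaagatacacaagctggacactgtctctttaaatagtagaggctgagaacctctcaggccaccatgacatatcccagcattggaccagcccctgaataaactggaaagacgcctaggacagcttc
Uchl1: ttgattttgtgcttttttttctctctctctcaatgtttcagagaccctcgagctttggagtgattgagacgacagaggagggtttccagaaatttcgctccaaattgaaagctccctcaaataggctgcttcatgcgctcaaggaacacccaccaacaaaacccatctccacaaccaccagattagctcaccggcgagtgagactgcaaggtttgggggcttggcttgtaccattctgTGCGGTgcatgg

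Neither RUNX sequence is in the 250 bases before either of the 2 listed Dcx starts. TATAAA begins 98 bases before the Dcx start shown. Pmp22 has 4 listed starts: the match shown begins 183 bases before the first, another begins 198 bases before the second, and the other 2 have none. The Uchl1 match begins 12 bases before its 1 listed start. Of the 38 genes, 25 had a start in the table, with 41 starts in all, and 5 of these 41 held TGTGGT or TGCGGT (12.2%). Among all 32851 stretches of this length the share was 18.6%, and it was 12.4% for TATAAA. These matches describe letters only.

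The Schwann cell and neural crest regulators showed no call among 4 tested genes of 5. Sox10, the transcription factor that specifies peripheral glia, had signals of 261.7 and 271.1 in Runx2-null, against 308.0 and 238.3 in wild type on array B. The Runx2-null pools lay between the wild-type pools, and the log2 difference was -0.02 (95% interval -0.46 to 0.42, adjusted p = 0.970 with the block and 0.999 without). The suffix of the array B probe set was treated as a mark of sequence shared with other genes. A Sox10 probe set on array A, without such a suffix, had 116.2 and 91.1 against 110.5 and 81.9 (log2 difference 0.11).

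Egr2, which drives myelination in Schwann cells, had 26.7 and 16.6 in Runx2-null, against 33.7 and 29.9 in wild type. Both Runx2-null pools were lower, with a log2 difference of -0.46. Of the 22 tested genes it is the 1 that entered the tests only through its wild-type pools, so the filter favoured this direction and the difference is given as a description. Erbb3, the neuregulin receptor of the Schwann cell lineage, had 56.7 and 18.9 against 40.1 and 26.3, and Ngfr, the p75 neurotrophin receptor, had 146.5 and 68.1 against 133.5 and 87.2. Both were higher in replicate 1 of each genotype, and their genotype differences were 0.04 and -0.09. Foxd3, a neural crest factor that was not tested, had 1.4 and 1.0 against 1.7 and 1.4.

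Among glial and myelin proteins, 3 of 4 tested genes were higher in Runx2-null within both replicates and none passed. Fabp7, the brain fatty acid binding protein made by Schwann cell precursors, had 23.9 and 54.2 in Runx2-null, against 9.2 and 29.0 in wild type. Each Runx2-null pool exceeded the wild-type pool of its number, but the genotypes overlapped. The log2 difference was 0.85 (SE 0.29, 95% interval 0.23 to 1.47, adjusted p = 0.146 with the block and 0.955 without).

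S100b, a calcium-binding protein of Schwann cells and of chondrocytes, behaved in the same way, with 176.9 and 259.3 against 131.0 and 195.1. Its log2 difference was 0.41 (SE 0.12, 95% interval 0.14 to 0.67, adjusted p = 0.103 with the block and 0.978 without), and it was 0.41 within replicate 1 and 0.40 within replicate 2. Fabp7 and S100b were higher in replicate 2, unlike the muscle markers. Pmp22, a membrane protein of compact myelin, had 920.0 and 1098.1 against 852.4 and 834.1, without overlap, and a log2 difference of 0.25 (95% interval 0.05 to 0.45, adjusted p = 0.177). Mbp, the myelin basic protein gene, had 37.4 and 24.3 against 37.3 and 28.2 (log2 difference -0.08, 95% interval -0.64 to 0.47). Cnp, an enzyme of myelinating glia, was below the filter with 13.9 and 3.4 against 4.9 and 7.4.

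The microtubule group held Dcx and 3 other tested genes of 9. Map2, which binds microtubules in dendrites, had 229.7 and 187.7 in Runx2-null, against 126.6 and 139.0 in wild type on array B. The genotypes did not overlap, yet the log2 difference of 0.60 did not pass (SE 0.21, 95% interval 0.13 to 1.07, adjusted p = 0.187 with the block and 0.730 without). Dimmer Map2 probe sets, below the filter, had 22.9 and 12.1 against 12.7 and 3.4 on A, and 10.2 and 20.9 against 20.3 and 6.3 on B.

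Tubb3, the neuronal beta-tubulin, had 925.5 and 878.2 against 663.4 and 894.5, and the genotypes overlapped. Its log2 difference was 0.22 (95% interval -0.01 to 0.46, adjusted p = 0.317), with 0.48 within replicate 1 and -0.03 within replicate 2. The suffix of its probe sets marks sequence shared with related genes, so other tubulins may add to this signal. Mapt, which encodes tau, had 43.7 and 38.3 against 58.8 and 25.3, with opposite signs within the replicates (-0.38 and 0.49). A Mapt probe set on B had 50.5 and 25.5 against 24.3 and 53.6, and its log2 difference of -0.01 likewise came from opposite signs. The neurofilament genes Nefl, Nefm and Nefh, the peripheral intermediate filament gene Prph and the microtubule-associated Map1b were below the filter. Prph had 22.4 and 14.9 in Runx2-null, against 10.5 and 2.5 in wild type, on a probe set of shared sequence, while its other probe set had 0.9 and 0.9 against 1.8 and 1.2. The Prph probe sets differed in sign, and no test was made at this brightness. Nefl had 15.5 and 7.4 against 7.5 and 6.3.

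Stathmins and growth cone proteins gave 0 calls among 6 tested genes. Gap43, a membrane protein of growing axons, had 83.9 and 65.5 in Runx2-null, against 61.2 and 46.7 in wild type. Its genotypes did not overlap, and its log2 difference was 0.42 (95% interval 0.03 to 0.82, adjusted p = 0.257 with the block and 0.937 without). Stmn2, a tubulin-binding protein of growing axons, went the other way with 58.6 and 47.7 against 82.5 and 59.4, also without overlap. Its log2 difference was -0.36 (95% interval -0.77 to 0.04, adjusted p = 0.349 with the block and 0.984 without). These Gap43 and Stmn2 probe sets also carry a suffix treated as a mark of shared sequence. Stmn2 probe sets on A without it, below the filter, differed in sign. They had 9.9 and 12.4 against 23.0 and 15.1 (log2 difference -0.51), and 5.1 and 13.4 against 4.1 and 7.3 (log2 difference 0.32).

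Dpysl3, a collapsin response mediator, had 455.4 and 489.9 against 629.4 and 500.3 on array B, without overlap (log2 difference -0.24, adjusted p = 0.554). On array A it had 53.7 and 8.0 against 96.6 and 24.7, a log2 difference of -0.93 that did not pass (95% interval -1.46 to -0.39, adjusted p = 0.0709 with the block and 0.999 without). Both probe sets were lower in Runx2-null within each replicate. Stmn4 had 29.2 and 45.1 against 52.6 and 40.5. For Crmp1, a relative of Dpysl3, the values were 53.1 and 16.3 against 31.6 and 27.2, and for Marcksl1, a widely expressed actin regulator, 386.0 and 270.3 against 431.6 and 265.1. In these 3 genes the sign of the genotype difference was not the same in both replicates. Stmn3 was below the filter.

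Of the adhesion molecules, 3 of 6 were tested and 0 passed. Ncam1, which binds cells homophilically, had 308.1 and 291.7 in Runx2-null, against 229.1 and 255.2 in wild type, without overlap. Its log2 difference was 0.30 (95% interval 0.06 to 0.55, adjusted p = 0.188 with the block and 0.958 without). A second Ncam1 probe set on A, with a suffix treated as a mark of shared sequence, had 62.6 and 65.1 against 54.3 and 41.5. Its log2 difference was 0.38, also without overlap. Dimmer Ncam1 probe sets, below the filter, had 3.2 and 2.0 against 2.8 and 9.2 on A (log2 difference -0.40). On B such a probe set had 19.8 and 12.8 against 13.3 and 13.9 (log2 difference 0.13). L1cam, an axonal adhesion molecule, had 9.9 and 37.7 against 17.2 and 73.4 on array B, and thus a difference between replicates of 1.33 on the log2 scale, against -0.58 between genotypes (95% interval -1.40 to 0.23, adjusted p = 0.459). Cntn2, an axonal contactin, had 97.3 and 59.1 against 113.8 and 55.6 (log2 difference -0.06). Chl1, Cntn1 and Nrcam were below the filter.

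Synaptic proteins were dim throughout. Snap25 had 1.7 and 1.2 in Runx2-null, against 1.1 and 1.0 in wild type, and Syp had 2.6 and 1.7 against 4.4 and 4.5. Syt1, the calcium sensor of vesicle release, had 44.8 and 8.6 against 32.2 and 23.3. All 3 were below the filter, as were the neuronal RNA-binding proteins Elavl3 (16.0 and 19.8 against 13.9 and 22.1) and Elavl4 (10.2 and 1.9 against 3.7 and 5.1). Uchl1, a ubiquitin hydrolase abundant in neurons, was tested: it had 173.3 and 106.4 against 146.6 and 102.0 (log2 difference 0.14, 95% interval -0.16 to 0.44, adjusted p = 0.653). Over all 16 genes below the filter, the signals of the 4 pools ran from 1.0 to 45.7 with a median of 8.3. Such signals do not show how much of a transcript was present.

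**Figure D2:**
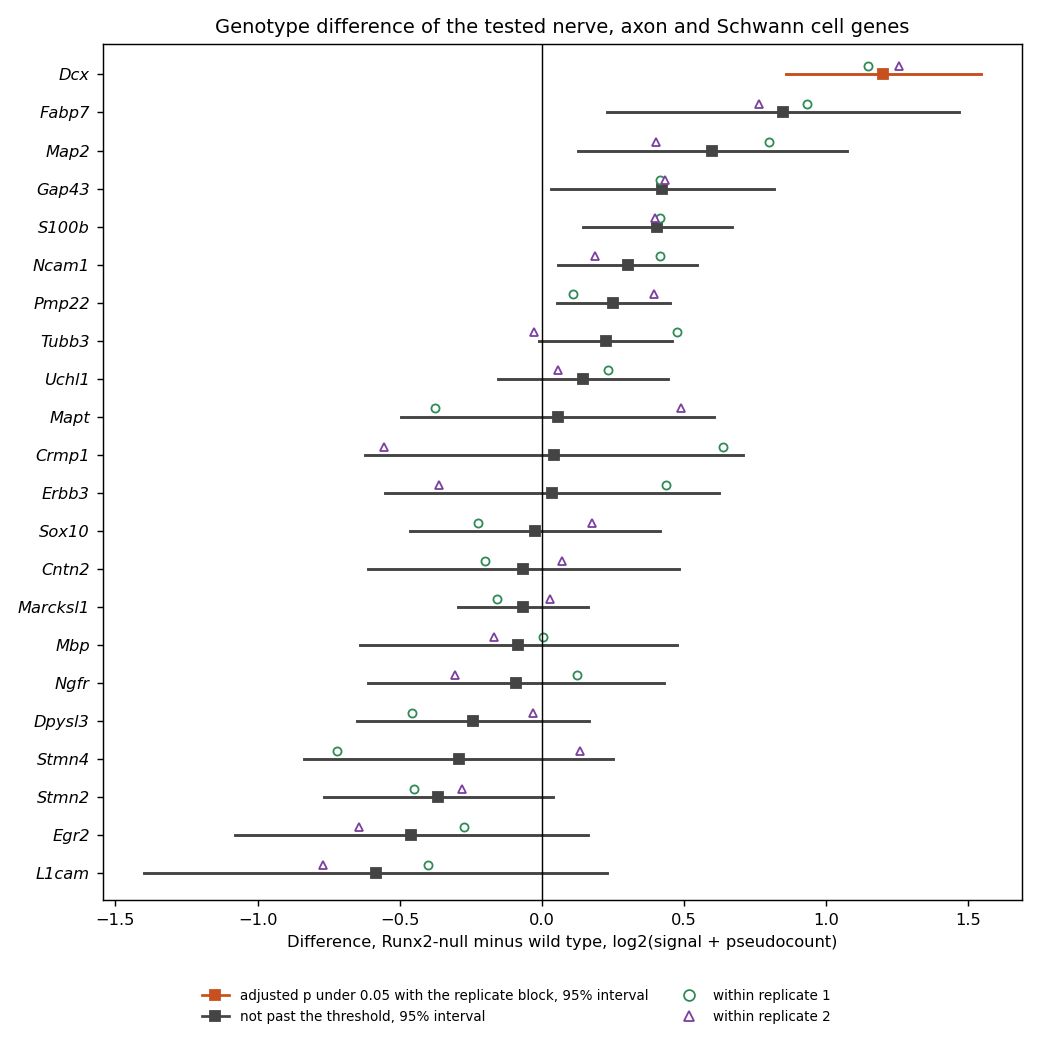
Difference between genotypes on the log2(signal + pseudocount) scale for the 22 tested genes, with squares for limma's estimate, bars for the 95% interval of the fit with the replicate block, and open symbols for the difference within each replicate. Dcx, at 1.20, is the 1 gene past the threshold, and both of its replicates lie near the estimate. The intervals of 7 genes lie above 0 and 0 lie below it.

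The intervals show what the arrays could resolve. Their half-widths ran from 0.20 to 0.81 on the log2 scale. Only 2 pools per genotype were measured, and eBayes drew most of each variance from other probe sets. The weight of these other probe sets, in degrees of freedom, was 12.7 on A and 7.74 on B with the block. The intervals are thus not a measured spread of the single gene. Intervals of 7 of 22 genes excluded 0 before adjustment, all of them higher in Runx2-null: Dcx, Fabp7, Map2, Gap43, S100b, Ncam1 and Pmp22. This count depends on which probe set stands for a gene, since the dimmer Dpysl3 probe set on A had an interval below 0. Over all probe sets, 14.8% had an unadjusted p under 0.05 with the block and 2.06% without, where Dcx was the 1 member.

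Many members differed more between replicates than between genotypes, though a smaller share of them than of all probe sets. The difference between replicates was larger than that between genotypes for 12 of the 22 genes (54.5%), against 67.8% of all tested probe sets on A and B. For 15 genes (68.2%) the signal was lower in replicate 2, against 52.2% of all. The median difference, replicate 2 minus replicate 1, was -0.31 over the 22 genes and -0.03 over all. It was -2.003 for the skeletal muscle genes. The part of muscle in the members' replicate difference was not tested.

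**Figure D3:**
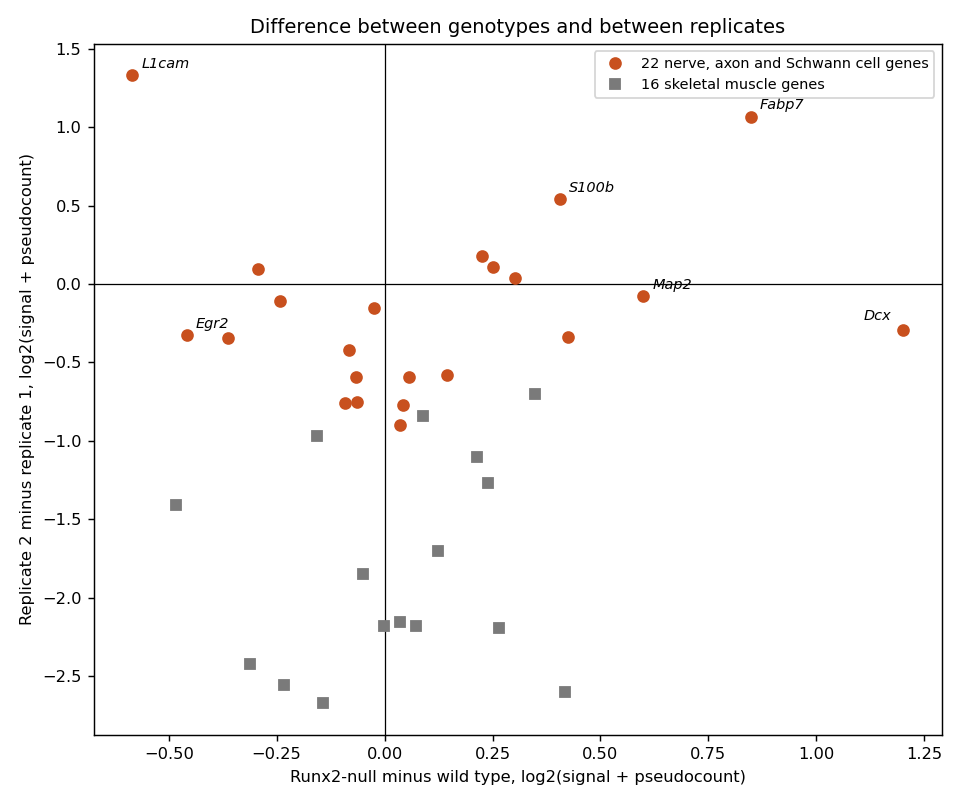
Difference between genotypes (horizontal, Runx2-null minus wild type) and between replicates (vertical, replicate 2 minus replicate 1), both on the log2(signal + pseudocount) scale, for the 22 tested nerve, axon and Schwann cell genes (circles) and 16 skeletal muscle genes (squares). Muscle genes lie far below 0 on the vertical axis with genotype differences on both sides of 0. Dcx has a genotype difference of 1.20 and a replicate difference of -0.30.

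On array C, 16 probe sets covered 13 of the genes, and 10 were tested. None passed in limma's fits with or without the block, where 2.18% and 0.0259% of the probe sets of all 3 types passed. Their differences as labelled ran from -0.57 to 0.49. The highest was that of Fabp7, with 52.8 and 69.4 on the arrays labelled Runx2-null, against 38.3 and 42.5 on those labelled wild type. For Map1b, Nefl, Stmn3, Chl1 and Elavl3, which were below the filter on A and B, only array C gave a tested probe set. Chl1, an adhesion molecule related to L1cam, had 103.8 and 61.5 against 176.5 and 79.0 there, and Stmn3 had 308.8 and 343.6 against 332.2 and 348.0. Nefl had 38.2 and 61.0 on the arrays labelled Runx2-null, against 52.1 and 87.5, the opposite sign to its probe set on A.

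Other genes of nerve were read from further lists. Of 16 further Schwann cell and myelin genes, 5 entered the tests on A and B with 0 calls (median log2 difference 0.09). Of 33 further pan-neuronal genes, 18 entered the tests: 1 was called higher, 1 lower and 16 neither (median -0.06). That is 5.56% each way, beside 0.904% higher and 1.29% lower of all probe sets. On array A, where both calls were made, the shares of all probe sets were 1.61% and 2.25%. Rab3a, a GTPase of synaptic vesicles, had 74.0 and 84.3 in Runx2-null, against 32.8 and 43.3 in wild type, and rose with a log2 difference of 0.94 and an SE of 0.20 (adjusted p = 0.0261 with the block, 0.424 without it). Thy1, a surface glycoprotein of neurons and also of fibroblasts and T cells, had 3.2 and 3.7 against 88.5 and 30.7. Thy1 is the gene called lower, but it entered the tests only through its 2 wild-type pools and its Runx2-null signals were below the pseudocount, so the call and its size are not read. Of 21 sensory and sympathetic neuron genes, 5 were tested and 0 passed (median -0.18), and of 13 neurotrophic factors and receptors, 8 were tested and 0 passed (median 0.18).

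Axon guidance genes, whose products steer axons and also vessels and mesenchymal cells, held 5 of the calls with the block. Of 29 listed, 22 entered the tests on A and B: 5 were called lower, 0 higher and 17 neither. That is 22.7% lower, set beside 1.29% of all probe sets (2.25% on A and 0.356% on B), and the median was -0.08 against 0.01 for all. The list was chosen with earlier results of these data known, so its share is a description and not a test. Its genes were read from their probe sets of highest signal percentile, while the share of all counts every tested probe set. With the block and no variance trend all 5 calls were lost, with no filter 3 were made and with robust eBayes 4. Nrp2, a receptor for class 3 semaphorins and for VEGF-C, had 123.4 and 117.8 in Runx2-null, against 399.0 and 435.8 in wild type (log2 difference -1.69, SE 0.19, adjusted p = 0.00351 with the block, 0.123 without it). Slit3, a secreted ligand of Robo receptors read by a probe set of shared sequence, had 115.8 and 36.2 against 277.3 and 302.2 (log2 difference -1.93, adjusted p = 0.0242 and 0.258). In both genes each Runx2-null pool was lower than both wild-type pools.

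The other 3 differences were smaller than those of Nrp2 and Slit3. Unc5b, a netrin receptor, had 249.9 and 327.5 in Runx2-null, against 620.0 and 667.8 in wild type (log2 difference -1.13, adjusted p = 0.0165 with the block and 0.300 without). Plxnd1, a semaphorin receptor of endothelial cells, had 132.8 and 45.8 against 185.1 and 156.0 (log2 difference -1.04, adjusted p = 0.0240 and 0.734), with -0.46 within replicate 1 and -1.63 within replicate 2. Sema3d, a secreted semaphorin and the fifth gene that fell, is named after its values were seen, with 89.2 and 117.8 against 182.3 and 322.2 (log2 difference -1.15, adjusted p = 0.0335 and 0.418). Epha7, an ephrin receptor, had the highest difference of the 22 at 0.75 and did not pass (adjusted p = 0.107).

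Endothelial markers moved beside these genes. Of 8 tested, 7 were lower in Runx2-null within both replicates, 87.5% beside 28% of all probe sets, and 0 passed. Their median log2 difference was -0.46. The 9 summed signals were 825.8 and 536 in Runx2-null, against 1036.5 and 715.9 in wild type. The part of endothelial cells in the axon guidance calls was not tested.

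**Figure D4:**
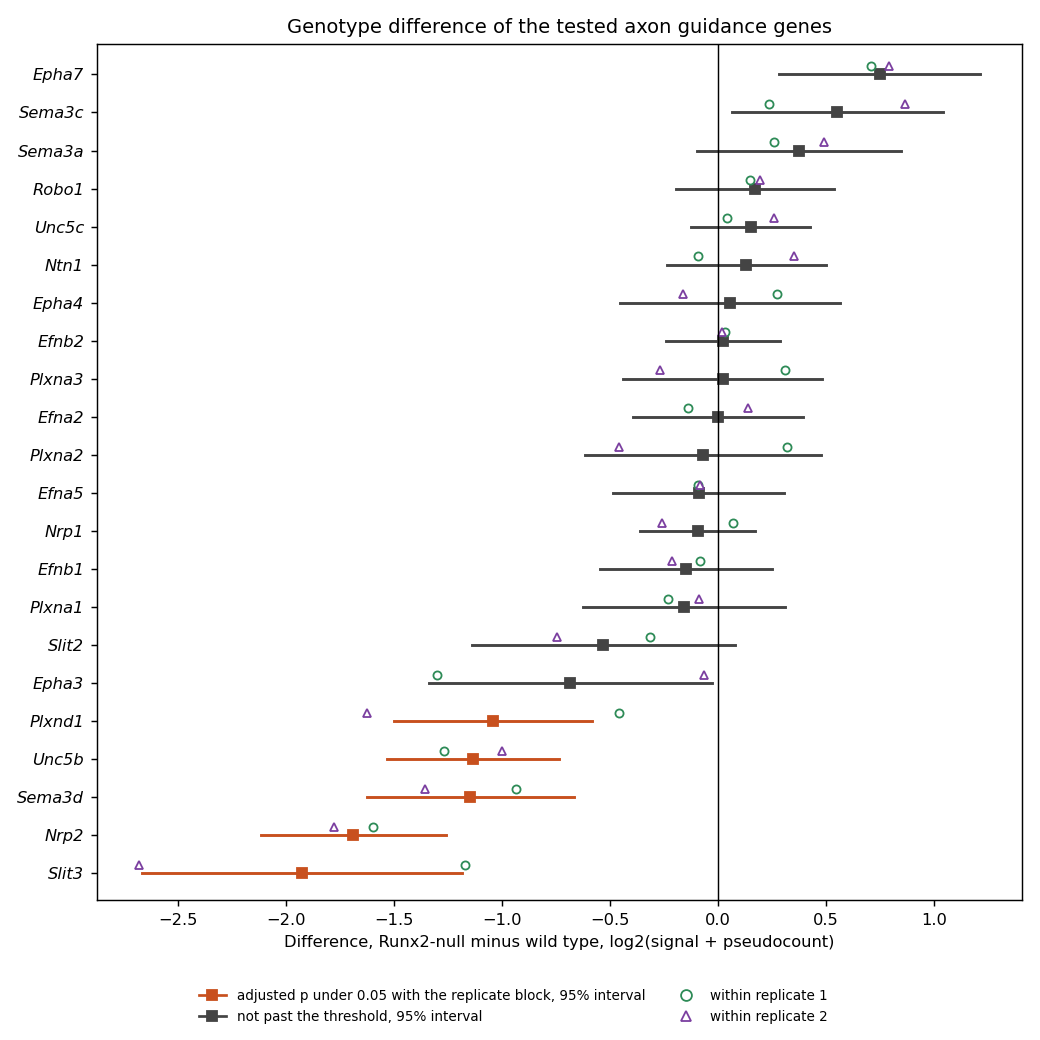
Difference between genotypes on the log2(signal + pseudocount) scale for the 22 tested axon guidance genes, drawn as for the nerve genes, with orange for an adjusted p under 0.05 with the replicate block. The 5 orange genes lie between -1.93 and -1.04, and the others lie between -0.68 and 0.75. Slit3 and Plxnd1 differ more between replicates than Nrp2 does.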

How the data were processed

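Total RNA (10 µg per sample, per the labels) of 4 pools was read on 3 array types. The deposited values are MAS5 signals, an intensity per probe set and array, and the submitters' processing notes name MAS5; its version and settings are not given in the sources used here. The 2% trimmed mean of each deposited intensity column was 100.0 to 100.1, so arrays had been scaled and no normalization was added. The number of arrays limits the precision.

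Gene names came from the arrays' platform annotation, in which 29131 probe sets had 1 symbol, 724 several and 6846 none listed, beside 198 controls. The pseudocount was the 20th percentile of each type's values. Differences were tested with lmFit and eBayes (trend) from limma (version 3.58.1, under R version 4.3.3), each array type being fitted separately and p-values adjusted by Benjamini-Hochberg across the 23193 tested probe sets, and the procedure was tested on simulated data. All adjusted p-values are limma's. The probe set on A or B whose mean log2 signal ranked highest within its array stood for a gene. By rule, signals are given for every member that passed and the 2 lowest p-values of each role, and up to 4 called genes of each further list are named; values of other members were added after they were seen.

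Scan settings in the array files put the arrays into 2 batches (pixel size 3 and 2.5 µm) equal to the replicate numbers. Deviations of same-numbered arrays from genotype means correlated at 0.764 on A, 0.595 on B and 0.056 on C. The members and lists were chosen with earlier results of these data known, and the use of rose and fell for calls with the block was settled then too. Promoter sequences are RefSeq's, read with Python 3.11.15.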

Additional observations from a re-analysis of the deposited data

How the results depend on the processing

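The replicate number, which pairs one array of each genotype within a scan batch on A and B, mattered most. On all 3 array types 6 probe sets passed without the block and 505 with the replicate block; on A and B alone the counts were 4 and 343. Among members the block gave 1 call and no block gave 0, and among axon guidance genes it gave 5 and 0; it changed no other member's call. Without the block, the count over all types was 11 with the pseudocount doubled, 11 with a 60th percentile filter, 12 after quantile normalization, 2 without the variance trend (2 on A and B) and 10 without probe sets of shared sequence. Combinations with the block were chosen after seeing the data. They gave over all types, then on A and B, 495 and 359 with the pseudocount halved, 681 and 440 with it doubled, 110 and 95 with no filter, 667 and 380 with the 60th percentile filter, 609 and 326 after quantile normalization, and 488 and 332 with robust eBayes; adjusted over A and B alone, 343. In each of these the member count was 1 and the axon guidance count 5, except 3 with no filter and 4 with robust eBayes. With the block and no trend both were 0. The median log2 difference of the members, 0.0395, was 0.2249 with the 60th percentile filter, with or without the block, where fewer genes were tested, and 0.1159 within scan batch 1.

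Leaving out 1 pool at a time without the block gave 5 to 22 calls over all types (22 without wild-type replicate 1), 5 to 22 on A and B, 0 to 0 among members and 0 to 1 among axon guidance genes. The members' median then ran from -0.1519 without wild-type replicate 2 to 0.214 without Runx2-null replicate 2, so its direction rests on single pools. Ranges that crossed 0 were -0.2004 to 0.1527 for Sox10, -0.6127 to 0.6857 for Erbb3, -0.5791 to 0.3967 for Ngfr, -0.3353 to 0.1691 for Mbp, -0.4573 to 0.5692 for Mapt, -0.641 to 0.7261 for Crmp1, -0.4099 to 0.2789 for Marcksl1, -1.3424 to 0.1741 for L1cam, -0.5078 to 0.3785 for Cntn2 and -0.1903 to 0.4786 for Uchl1. Other ranges kept their sign but had an end that differed over 1.5 times from the gene's value with all pools. These were 0.2726 to 1.4246 for Fabp7, 0.1309 to 0.6813 for S100b, 0.1248 to 0.3783 for Pmp22, 0.2514 to 0.5962 for Gap43 and 0.0112 to 0.4385 for Tubb3. Among lower genes they were -0.4045 to -0.0808 for Dpysl3, -0.7155 to -0.2016 for Egr2, -0.5793 to -0.1486 for Stmn2 and -0.5556 to -0.0303 for Stmn4. Within 1.5 times of the value with all pools, Dcx stayed between 1.0257 and 1.377, Map2 between 0.4624 and 0.7365 and Ncam1 between 0.2266 and 0.3779. Sox10 was 0.0407 when its probe sets were averaged. The 2 pools per genotype, and signals near the pseudocount in dim genes, limit the precision. Where a setting moved a value, the cause was not tested, except that fewer genes entered the stricter filter.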
